A study of Mus musculus with 6 samples.

Results

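The genes described here carry zinc across the membranes of cartilage cells, sense it and bind it: the importer genes Slc39a8 (ZIP8) and Slc39a14 (ZIP14), the exporter gene Slc30a1 (ZnT1), the transcription factor gene Mtf1, and the metallothionein genes Mt1 and Mt2. They were taken by symbol from a table of 47480 genes, and all 6 were found and passed the filter on low values that left 11595 genes to test. RNA was sequenced from primary chondrocytes of newborn mice in 2 groups of 3 libraries, and each library pools the cells of a whole litter. WT mice are C57BL/6, and A2ARKO mice lack Adora2a, the gene of an adenosine receptor, in the whole body on the same background. The study asked what drives osteoarthritis, the joint disease in which cartilage is lost. A replicate is a litter pool, so SD and p-values measure the spread between pools, and the labels name neither a treatment nor a batch. Values are FPKM, fragment counts scaled to gene length and to the library's total. The gene lengths used are not stated, so levels of different genes can be compared only approximately.

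Zinc enters the cytosol through ZIP proteins, the Slc39 family, and leaves it through ZnT proteins, the Slc30 family. MTF1 binds zinc through its zinc fingers and then switches on the metallothionein genes and Slc30a1 by way of short DNA motifs called metal response elements. Metallothioneins are small cysteine-rich proteins that bind zinc and copper and take up free metal. In cartilage, ZIP8 and MTF1 are known as a route by which zinc raises the expression of matrix-degrading proteases in osteoarthritis. ZIP8 and ZIP14 also carry iron and manganese, and both genes are known to respond to inflammatory signals.

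Adora2a, the deleted gene, had FPKM of 9.36, 7.31 and 3.46 in WT replicates 1, 2 and 3 and of 0.41, 0.54 and 0.66 in A2ARKO replicates 1, 2 and 3, in the order used throughout. Its log2 fold change was -2.25 (limma adjusted p = 0.0203), so the targeted gene went with the labels. It reached the filter's 1 FPKM only in WT, so it was admitted through the group in which it was high. Its adjusted p was 0.0582 without WT replicate 2 and 0.0824, 0.0955 and 0.0864 without A2ARKO replicates 1, 2 and 3. With no filter it was 0.0533 and with a replicate block 0.121. Adora2a passed without WT replicate 1 (0.0235) and without WT replicate 3 (0.00999). Steps between low values put 41.6 to 58.3 M fragments behind each library. The WT libraries differed widely in their cells' marker genes. FPKM of 10 chondrocyte markers, among them Col2a1 and Acan, summed to 24600, 1320 and 483.6 in WT and 2192, 4400 and 6129 in A2ARKO. WT replicate 1 stood far above the rest. The sums rest largely on a few genes. WT replicate 3 had 184.58 FPKM of Col2a1 and 165.03 of Comp, but 3.55 of Acan and 0.57 of Matn1. In WT replicate 2 Acan was at 11.56 and Matn1 at 3.04 FPKM, while the lowest A2ARKO values were 41.03 and 47.51. The sum of 9 macrophage and leukocyte markers was 173.2, 1832 and 124.4 in WT and 42.6, 21.2 and 16.2 in A2ARKO, and WT replicate 2 also held most of the skeletal muscle markers (630.3 against 5.07 to 22.8 in the other 5). In bulk samples fewer cells of a type and less RNA per cell cannot be told apart.

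In A2ARKO chondrocytes the importer genes Slc39a8 and Slc39a14 rose, Mt1 and Mt2 lay above WT in every library but did not pass the test, and Mtf1 and Slc30a1 differed little. By limma, 2 of the 6 genes were called higher at an adjusted p below 0.05, 0 lower and 4 did not pass. Over all tested genes 5.08% were called, 3.31% higher and 1.77% lower, so that 65.2% of called genes were higher; that split was 51.1% with libraries scaled to equal sums and 53.8% after quantile normalization. For 5 of the 6, all A2ARKO libraries lay above all WT libraries, which held for 18.0% of tested genes, and 32.9% of tested genes had groups that did not overlap in either direction. The median log2 fold change of the 6 was 1.65, and that of all tested genes was 0.0020. The 6 genes were chosen with earlier results of these data known, so these contrasts do not test the set.

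**Figure D1:**
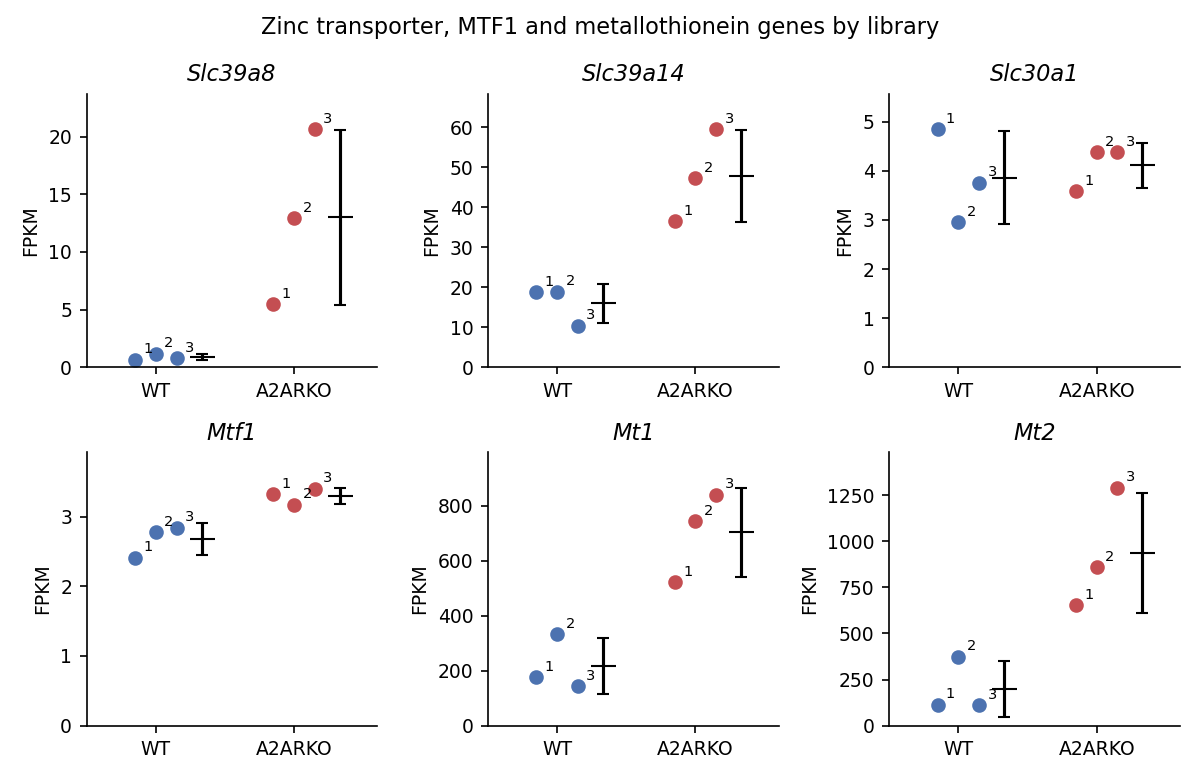
FPKM of the 6 genes in each library (points, numbered by replicate; vertical axes start at 0), with the mean and SD of 3 libraries in black. For Slc39a8 the 3 A2ARKO libraries sit between 5.45 and 20.66 FPKM and the 3 WT libraries between 0.65 and 1.17, while the groups overlap for Slc30a1.

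Slc39a8, the gene of the plasma membrane importer ZIP8, had 0.65, 1.17 and 0.81 FPKM in WT and 5.45, 12.97 and 20.66 in A2ARKO. It was thus low in every WT library, and the lowest A2ARKO library was still above the highest WT library. The mean went from 0.877 ± 0.266 to 13.0 ± 7.61 FPKM (SD, n = 3), 14.9-fold higher. Slc39a8 rose by 2.745 in log2(FPKM + 1) (95% interval 1.70 to 3.79, limma adjusted p = 0.0291). The added 1 shrinks the fold change of a gene this low, and with 0.1 in its place the rise was 3.59. Among all tested genes with a positive log2 fold change it ranked 34th by size. Its mm10 position is 135825279 to 135888572 on the plus strand of chromosome 3. With its annotated exon length of 7664 nt, the FPKM correspond to about 207, 448 and 326 fragments in WT and 2150, 5790 and 8360 in A2ARKO, so the WT level was low but not at the floor of detection. Within A2ARKO, replicate 3 was the highest and replicate 1 the lowest, so the SD of that group was wide.

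The call of Slc39a8 rested on several libraries. Its adjusted p was 0.0637 without WT replicate 2, 0.0505 without WT replicate 3, 0.124 without A2ARKO replicate 2 and 0.0749 without A2ARKO replicate 3, while the log2 fold change lay between 2.35 and 3.22 over the 6 fits that each omitted a library. The gene reached the filter's 1 FPKM in 1 WT library and in all A2ARKO libraries, so it was admitted through the group in which it was high. The predicted genes Gm43428 and Gm43429 lie within its span without shared exon bases and stayed at or below 0.58 FPKM.

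Slc39a14, which encodes ZIP14, an importer of zinc, iron and manganese, was expressed at a higher level. It had 18.75, 18.89 and 10.42 FPKM in WT and 36.6, 47.34 and 59.57 in A2ARKO. Every A2ARKO library again lay above every WT library, and WT replicate 3 was the lowest. Mean FPKM went from 16.0 ± 4.85 to 47.8 ± 11.5 (SD, n = 3), 2.99-fold higher, and the gene rose by 1.54 in log2(FPKM + 1) (95% interval 0.86 to 2.21, limma adjusted p = 0.0385). Its mm10 position is 70303469 to 70351425 on the minus strand of chromosome 14. Its adjusted p was 0.0663 without WT replicate 2 and 0.0809, 0.154 and 0.144 without A2ARKO replicates 1, 2 and 3, with log2 fold changes between 1.27 and 1.71.

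Within the importer family these were the genes that passed the test. Of the 14 Slc39a genes, 10 passed the filter: Slc39a8 and Slc39a14 rose, 0 fell and 8 did not pass, with a median log2 fold change of 0.031. Over all tested genes 5.08% were called. Slc39a10 and Slc39a6, named after their values were seen, also had groups that did not overlap. In all, 4 of the 10 had every A2ARKO library above every WT library, as did 18.0% of all tested genes. Groups did not overlap in either direction for 32.9% of all tested genes. Slc39a10, a plasma membrane importer gene, had 4.02, 5.42 and 4.79 FPKM in WT and 6.74, 6.77 and 8.94 in A2ARKO (log2 fold change 0.56, limma adjusted p = 0.0825). Slc39a6 had 26.76, 25.47 and 29.46 FPKM in WT and 33.03, 35.16 and 34.1 in A2ARKO (log2 fold change 0.32, adjusted p = 0.0945). By level, the top importer gene in every WT library was Slc39a1, the broadly expressed ZIP1, with a mean of 56.3 ± 10.4 FPKM in WT and 53.6 ± 2.07 in A2ARKO (SD, n = 3). Its log2 fold change was -0.053, with a 95% interval of -0.42 to 0.31. Slc39a7, Slc39a9, Slc39a11 and Slc39a13, known mainly from the Golgi or endoplasmic reticulum, had log2 fold changes between -0.24 and 0.11. Slc39a2, Slc39a4, Slc39a5 and Slc39a12 stayed below 0.5 FPKM in every library and were not tested.

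**Figure D2:**
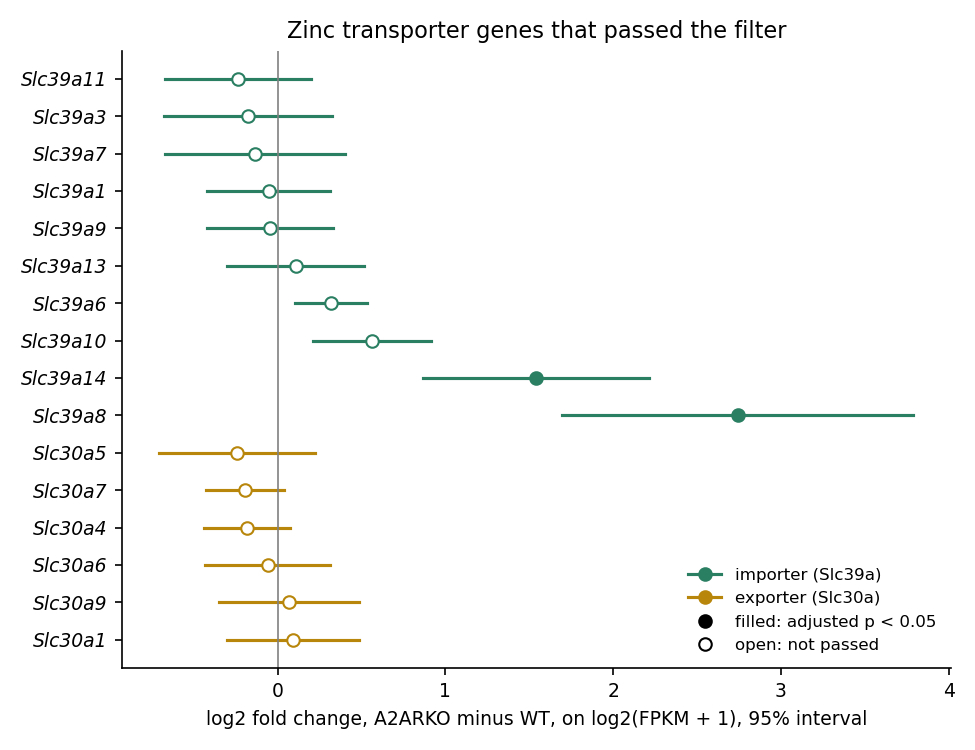
Difference of mean log2(FPKM + 1) between A2ARKO and WT (positive where A2ARKO is higher), with its 95% interval, for the 10 importer (Slc39a) and 6 exporter (Slc30a) genes that passed the filter; filled points passed at an adjusted p below 0.05. Slc39a8 (2.745) and Slc39a14 (1.54) are the filled points, and the intervals of all 6 exporter genes include 0.

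The makeup of importer transcripts differed in the same direction. Slc39a8 held 0.337%, 0.655% and 0.476% of the FPKM summed over the 14 importers in WT and 2.66%, 5.75% and 8.26% in A2ARKO. Slc39a14 held 9.72%, 10.6% and 6.13% in WT and 17.9%, 21.0% and 23.8% in A2ARKO, which made it second to Slc39a1 in A2ARKO replicates 1 and 2 and first in replicate 3. These shares are ratios within a library and do not depend on its scaling. For both genes all A2ARKO shares were above all WT shares (two-sided exact permutation p = 0.1 for each, the smallest that 3 against 3 libraries allow). The importers other than Slc39a8 and Slc39a14 summed to 173.5, 158.7 and 158.8 FPKM in WT and 162.8, 165.2 and 169.9 in A2ARKO, and the groups overlapped (exact permutation p = 0.6). With that sum similar, the shares largely restate the differences of Slc39a8 and Slc39a14 themselves. The ratio of Slc39a14 to Slc39a8 was 28.9, 16.2 and 12.9 in WT and 6.72, 3.65 and 2.88 in A2ARKO, so the gap between the importers was narrower in A2ARKO.

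**Figure D3:**
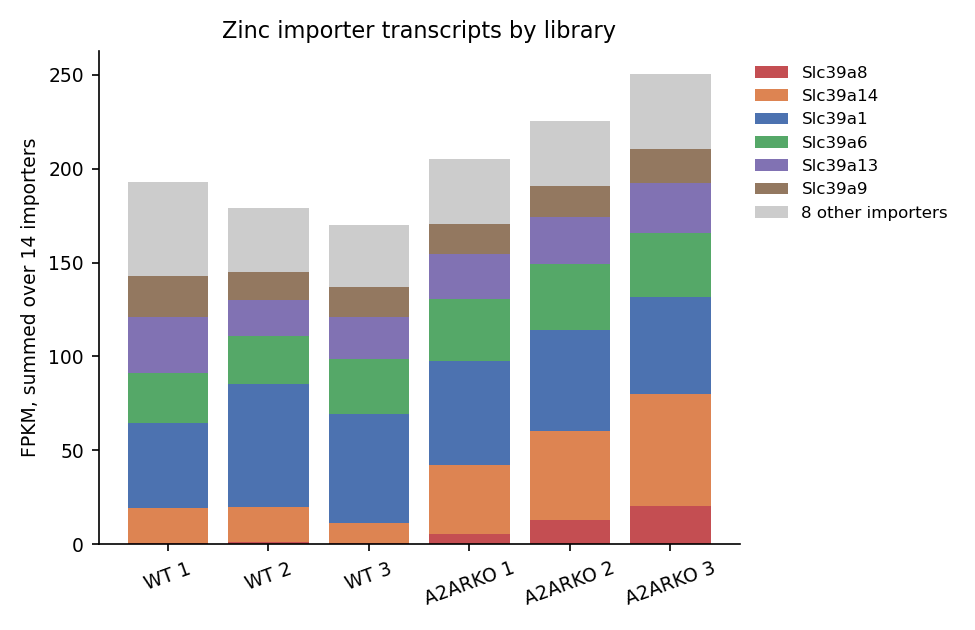
FPKM of the zinc importer genes stacked by library, from 0 on the vertical axis; the grey part sums the 8 importers not named. The Slc39a8 and Slc39a14 parts are larger in the 3 A2ARKO libraries (23.8% of the total for Slc39a14 in A2ARKO replicate 3), and all importers other than Slc39a8 and Slc39a14 sum to 158.7 to 173.5 FPKM in WT and 162.8 to 169.9 in A2ARKO.

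Slc30a1 encodes ZnT1, the exporter that moves zinc out of the cell and a known target of MTF1. It had 4.85, 2.96 and 3.76 FPKM in WT and 3.59, 4.38 and 4.38 in A2ARKO. The groups overlapped, and WT replicate 1 was the highest library. Its log2 fold change was 0.090 with a 95% interval of -0.30 to 0.48 (limma adjusted p = 0.781), and it was -0.0044 with libraries scaled to equal sums. Its mm10 position is 191906767 to 191913247 on the plus strand of chromosome 1. Of the 10 exporter genes 6 passed the filter, and limma called 0 of them (0 also at an unadjusted p below 0.05), with a median log2 fold change of -0.12. Of all tested genes 5.08% were called and 24.7% had an unadjusted p below 0.05. Slc30a7, whose protein moves zinc from the cytosol into the Golgi, had the smallest unadjusted p of the family. It had 7.15, 7.54 and 8.88 FPKM in WT and 6.69, 6.83 and 6.59 in A2ARKO (log2 fold change -0.20, adjusted p = 0.268). Slc30a4, next by p, had a log2 fold change of -0.18 (adjusted p = 0.339). Slc30a8 and Slc30a10, the latter a manganese exporter gene, were listed at 0 in every library.

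The ratio of the importer Slc39a8 to the exporter Slc30a1 separated the groups. Slc39a8 stood at 0.134, 0.395 and 0.215 times the FPKM of Slc30a1 in WT and at 1.52, 2.96 and 4.72 times in A2ARKO. On the log2 scale of FPKM + 1 the ratio was -1.36 ± 0.480 in WT and 1.29 ± 0.763 in A2ARKO (SD, n = 3), a difference of 2.655 (exact permutation p = 0.1). Since Slc30a1 differed by only 0.090, this largely restates the difference of Slc39a8 (2.745) and is not a separate result.

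Mtf1, the gene of the zinc-sensing transcription factor, was expressed at a low and even level. It had 2.41, 2.78 and 2.84 FPKM in WT and 3.32, 3.17 and 3.4 in A2ARKO. The groups did not overlap, although the distance between them was small. The mean was 2.68 ± 0.233 in WT and 3.30 ± 0.117 in A2ARKO (SD, n = 3), 1.23-fold higher, and the log2 fold change of 0.23 (95% interval 0.013 to 0.44) did not pass (limma adjusted p = 0.182). It was 0.13 with libraries scaled to equal sums. Its mm10 position is 124802104 to 124849800 on the plus strand of chromosome 4. It shares 721 exon bases with 1110065P20Rik on the opposite strand, which had 9.0 to 11.9 FPKM in WT and 8.13 to 8.75 FPKM in A2ARKO, and without a stated strand setting reads in the shared bases cannot be told apart. MTF1 is regulated by zinc binding and movement into the nucleus, which RNA levels do not measure.

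Mt1 and Mt2, the metallothionein genes expressed in most tissues, were the most abundant of the 6. Mt1 had 176.94, 333.52 and 142.84 FPKM in WT and 522.65, 743.89 and 839.9 in A2ARKO. WT replicate 2 was the highest WT library and still below every A2ARKO library. The mean went from 218 ± 102 to 702 ± 163 FPKM (SD, n = 3), 3.22-fold higher. The log2 fold change of Mt1 was 1.75 (95% interval 0.86 to 2.65) and narrowly missed the threshold (limma adjusted p = 0.0527).

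Mt2 had 113.77, 374 and 112.07 FPKM in WT and 652.88, 858.23 and 1290.41 in A2ARKO. Here too WT replicate 2 stood above the other WT libraries, more than 3-fold, and below all A2ARKO libraries. The mean went from 199.9 ± 151 to 934 ± 325 FPKM (SD, n = 3), 4.67-fold higher, with a log2 fold change of 2.41 (95% interval 1.10 to 3.71, limma adjusted p = 0.0593). By level Mt2 ranked 310th, 66th and 276th of all genes in the WT libraries and 37th, 20th and 13th in the A2ARKO libraries. Without WT replicate 2 both genes passed, Mt1 at a log2 fold change of 2.11 (adjusted p = 0.0329) and Mt2 at 2.98 (0.0240). In the other 5 fits that left out a library neither passed, with adjusted p between 0.0764 and 0.201. WT replicate 2 is the library with the highest macrophage and muscle markers, and their part in its metallothionein level was not tested.

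The proportions within the metallothionein pair also differed between the groups. Mt2 stood at 0.643, 1.12 and 0.785 times the FPKM of Mt1 in WT and at 1.249, 1.154 and 1.536 times in A2ARKO. The log2 ratio of Mt1 to Mt2 was 0.274 ± 0.407 in WT and -0.382 ± 0.213 in A2ARKO (SD, n = 3; exact permutation p = 0.1), and WT replicate 2 lay next to the A2ARKO libraries in this ratio. Together Mt1 and Mt2 made up 0.0993%, 0.279% and 0.110% of all FPKM in WT and 0.437%, 0.589% and 0.708% in A2ARKO. Mt3 and Mt4, the metallothioneins of brain and stratified epithelium, reached at most 0.52 FPKM in any library and were not tested. Mt1 and Mt2 encode similar short proteins, so reads in near-identical stretches may be uncertain, and their levels against each other rest on exon lengths that the deposited table does not state. Mt2 shares 432 exon bases with the antisense gene Gm45774, which is not analysed here.

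Mt2 (mm10 chromosome 8, 94172664 to 94173568, plus strand) and Mt1 (94179082 to 94180327, plus strand) are neighbours, 5513 nt apart, and both were higher in each A2ARKO library than in any WT library, while the groups overlapped for Slc30a1, another known target of MTF1. The sequences before their starts are shown because MTF1 acts through metal response elements, whose core was searched as TGCACNC and TGCGCNC on both strands. The cores differ at a fixed letter, so a stretch cannot match both on the same strand, but matches on opposite strands may overlap. Promoter windows from RefSeq (GRCm38.p6; 250 bases before to 50 after each start) were found for 5 of the 6 genes, 6 windows in all, and Slc39a14 is named only. Shown 5′ to 3′ on the plus strand are the 250 bases before the start of Mt2 (chr8:94172368-94172617), Mt1 (chr8:94178839-94179088) and Slc30a1 (chr1:191906531-191906780), with matches to a core, or its reverse complement, in capitals.
Mt2: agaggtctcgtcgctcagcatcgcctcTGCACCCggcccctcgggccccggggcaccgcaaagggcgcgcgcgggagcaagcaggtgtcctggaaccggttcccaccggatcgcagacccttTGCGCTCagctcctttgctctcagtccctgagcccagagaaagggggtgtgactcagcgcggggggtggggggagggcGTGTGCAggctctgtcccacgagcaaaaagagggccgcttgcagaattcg
Mt1: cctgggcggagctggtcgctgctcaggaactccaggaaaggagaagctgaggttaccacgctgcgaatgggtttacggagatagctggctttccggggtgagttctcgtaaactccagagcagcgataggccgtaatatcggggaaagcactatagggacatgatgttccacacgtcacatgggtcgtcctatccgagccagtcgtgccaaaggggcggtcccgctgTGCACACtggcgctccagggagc
Slc30a1: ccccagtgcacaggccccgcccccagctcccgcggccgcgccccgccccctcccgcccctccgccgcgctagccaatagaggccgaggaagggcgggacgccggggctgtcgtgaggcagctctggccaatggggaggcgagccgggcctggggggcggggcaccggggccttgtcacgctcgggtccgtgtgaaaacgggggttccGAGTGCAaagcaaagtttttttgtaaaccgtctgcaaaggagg

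The Mt2 window held 4 matches: at 223 and 128 bases before the start on the plus strand, at 50 bases before it on the minus strand (its reverse complement is in capitals above) and at base 5 after it. Mt1 held 3, at 23 bases before the start and at bases 3 and 21 after it. Slc30a1 held 2, at 43 bases before and 31 after its start, both on the minus strand. Positions give the leftmost base of a match. At least 1 match was found in 25.7% of all 32817 promoter windows of the same length, at least 2 in 7.12% and at least 3 in 1.97%. Slc39a8 has 2 RefSeq starts, with 0 matches at the first and 1 at the second, and the Mtf1 window held 0. The annotation lists further starts of Mt1 downstream of the RefSeq start, whose upstream bases the window covers only in part. A match is a stretch of letters and not a measured binding site.

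**Figure D4:**
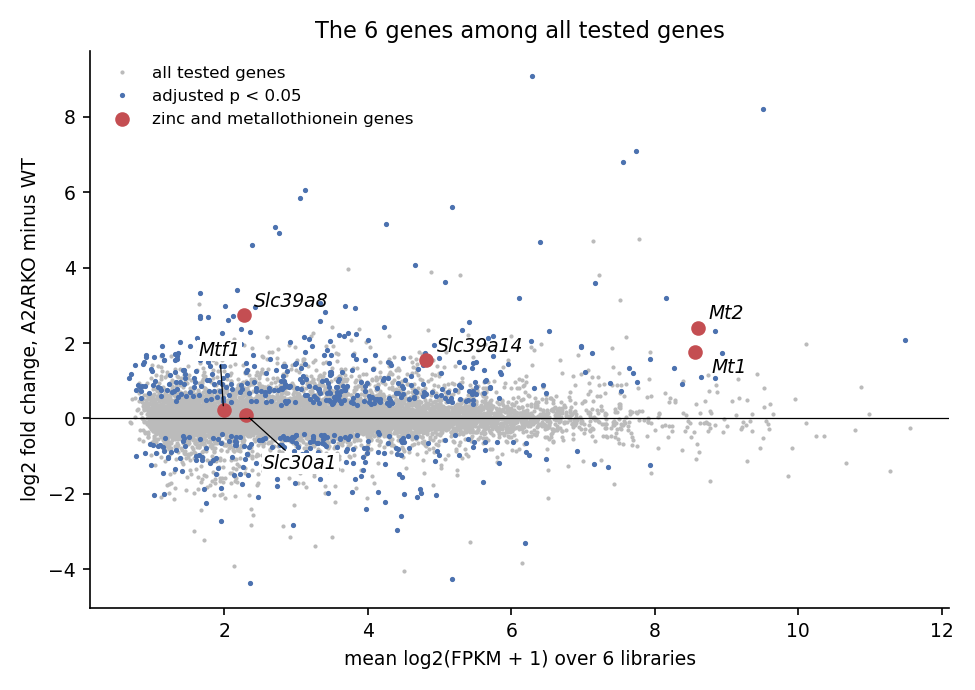
Log2 fold change (A2ARKO minus WT) against mean log2(FPKM + 1) over 6 libraries for 11595 tested genes (grey), genes called at an adjusted p below 0.05 (blue) and the 6 zinc and metallothionein genes (red). Mt1 and Mt2 lie at the abundant end at 1.75 and 2.41, Slc39a8 at a low mean level at 2.745, and Mtf1 and Slc30a1 near 0.

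Among the 5 matrix protease genes that the ZIP8 and MTF1 route is known for, limma called 1 higher and 0 lower, and 4 did not pass (median log2 fold change 0.97). Of all tested genes 5.08% were called and 32.9% had groups that did not overlap. Mmp3, encoding stromelysin-1, had 5.57, 72.95 and 10.56 FPKM in WT and 1170.13, 1712.66 and 3974.56 in A2ARKO, and rose by 6.81 on the log2 scale (adjusted p = 0.0210). Without A2ARKO replicates 1, 2 and 3 its adjusted p was 0.0714, 0.0941 and 0.0909. Mmp13, the gene of collagenase-3, had 211.02, 104.19 and 9.41 FPKM in WT and 265.91, 555.1 and 1086.14 in A2ARKO. Its groups did not overlap, WT spanned a wide range, and its log2 fold change of 3.15 did not pass (adjusted p = 0.168). It was 1.87 without WT replicate 3. Adamts5, an aggrecan-cleaving protease gene, overlapped between groups, with 25.9 to 89.8 FPKM in WT and 85.1 to 101.5 in A2ARKO (log2 fold change 0.97, adjusted p = 0.223). Its log2 fold change was 1.44 without WT replicate 3, where it passed (adjusted p = 0.0368), and 0.56 without WT replicate 2 (adjusted p = 0.359). Mmp12 and Mmp9 were low, with log2 fold changes of -0.70 and -0.17 (adjusted p of 0.170 and 0.908), and Mmp9 was highest in WT replicate 2 at 7.5 FPKM. Leaving out a library moved Mmp9 to between -0.62 (without WT replicate 3) and 0.68 (without WT replicate 2, adjusted p = 0.153), and its sign also turned with a pseudocount of 0.1 (0.091), and Mmp9 and Mmp12 passed in none of the settings run.

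Other metals share the transporters, and 12 genes of iron, manganese and copper handling were examined: 2 rose, 0 fell and 10 did not pass (median log2 fold change 0.32). Over all tested genes 5.08% were called and 32.9% had groups that did not overlap. Steap4, a metalloreductase gene, had 19.87, 40.96 and 12.57 FPKM in WT and 109.07, 200.89 and 402.54 in A2ARKO (log2 fold change 3.19, limma adjusted p = 0.0412). Fth1, the ferritin heavy chain gene, had 1388.69, 1889.28 and 1021.86 FPKM in WT and 5228.26, 5626.23 and 6757.83 in A2ARKO (log2 fold change 2.07, adjusted p = 0.0441). Both had groups that did not overlap, and neither kept its call in any of the 6 fits that omitted a library (adjusted p of 0.0517 to 0.181). Fth1 has many processed pseudogenes, so its values are uncertain. Its adjusted p was 0.109 after quantile normalization, 0.639 with no filter and 0.0531 with 1 FPKM required in all libraries. Steap4 did not pass with no filter either (0.0919). The iron importer gene Slc11a2 and the ferroxidase gene Cp, named after their values were seen, also lay higher in every A2ARKO library, at log2 fold changes of 1.06 and 3.88 (adjusted p of 0.0533 and 0.0570), and passed with libraries scaled to equal sums (0.0431 and 0.0461); Cp also passed without WT replicate 1 (0.0187). The iron exporter gene Slc40a1, likewise named after its values were seen, had 4.65, 5.84 and 1.14 FPKM in WT and 0.18, 0.33 and 0.46 in A2ARKO (log2 fold change -1.73, adjusted p = 0.0780). Without WT replicate 3 Slc40a1 passed (0.00999), and in the other fits that omitted a library it did not (0.116 to 0.232). It reached 1 FPKM only in WT, so it was admitted through the group in which it was high.

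For the 4 genes whose log2(FPKM + 1) spanned more than 1 unit, the genes of most similar pattern were sought by the root mean square distance of centred log2(FPKM + 1) over the 6 libraries. Distances were smallest for Slc39a8 with Il13ra2 (0.196), a decoy receptor gene for interleukin 13, with the NF-kappaB cofactor gene Nfkbiz (0.343) and with the acute-phase gene Orm1 (0.379). Il13ra2 had 0.33, 0.13 and 0.33 FPKM in WT and 3.17, 7.87 and 12.76 in A2ARKO, so it was low in WT and spread in A2ARKO as Slc39a8 was. For Slc39a14 they were the monocarboxylate transporter genes Slc16a3 (0.132) and Slc16a1 (0.152) and the complement protease gene C1ra (0.154). Slc16a1 had 16.63, 17.97 and 8.84 FPKM in WT and 32.48, 48.68 and 69.92 in A2ARKO. Nearest to Mt1 were Gch1 (0.184), encoding GTP cyclohydrolase, the mitochondrial superoxide dismutase gene Sod2 (0.224) and Fth1 (0.243), and nearest to Mt2 were the chemokine gene Ccl5 (0.179), Sod2 (0.401) and Ccl20 (0.415). Ccl5 had 1.1, 5.2 and 0.77 FPKM in WT and 8.17, 9.73 and 20.28 in A2ARKO, with WT replicate 2 highest among WT as for Mt2. Among the 6 genes themselves Mt1 lay closer to Slc39a14 (0.286) than to Mt2 (0.420), and Slc39a8 was closest to Mt2 (0.554). These distances describe the same 6 libraries in which the groups differ. Il13ra2, Orm1 and Ccl20 stayed at or below 0.68 FPKM in WT and reached the filter's 1 FPKM only in A2ARKO. A rise in A2ARKO was thus a condition for these genes to be compared at all, and the added 1 narrows differences among their WT values.

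Within A2ARKO, Slc39a8, Slc39a14, Mt1 and Mt2 were each lowest in replicate 1 and highest in replicate 3, as were the summed chondrocyte markers, while the summed fibroblast markers (4336, 2573 and 2427 FPKM) and macrophage markers were highest in replicate 1. Mtf1 was lowest in replicate 2. Between the groups, the chondrocyte sums of WT replicates 2 and 3 lay below every A2ARKO library and that of WT replicate 1 above every one. Of the 10 chondrocyte markers limma called 0 (0 at an unadjusted p below 0.05, which 24.7% of all tested genes reached). Over all tested genes 5.08% were called, 3.31% higher and 1.77% lower. Without WT replicate 1, limma called 2 of the 10 higher: Acan at a log2 fold change of 3.65 (1.37 with that library, adjusted p = 0.0475 without it) and Matn1 at 5.18 (2.22 with it, adjusted p = 0.0222 without it). That of Col2a1 was 0.83 with WT replicate 1, 2.69 without it (adjusted p = 0.0962) and -0.64 without WT replicate 3. In the fit without WT replicate 1, Slc39a8 and Slc39a14 had log2 fold changes of 2.66 and 1.67 (adjusted p of 0.0439 and 0.0397). The part of the chondrocyte markers in the results was not tested. Fibroblast markers summed to 6476 to 8820 FPKM in WT and 2427 to 4336 in A2ARKO, where 1 of 7, Dpt, fell (log2 fold change -2.22, adjusted p = 0.0354) and 6 did not pass; 5 of the 7 had an unadjusted p below 0.05. The call of Dpt held in 1 of the 6 fits that omitted a library, that without WT replicate 3 (adjusted p = 0.0255), with adjusted p of 0.0535 to 0.144 in the others, and Postn was called lower without WT replicate 1. The sum of fibroblast markers differed between the groups without overlap, and its part in the results was not tested. Collagen genes held much of that sum, with Col1a1 alone at 3397 to 5256 FPKM in WT and 1139 to 2393 in A2ARKO. The other markers did not all fall. Thy1 and Pdgfra overlapped between the groups, at log2 fold changes of 0.035 and 0.024 (limma adjusted p of 0.971 for each), and Postn overlapped too.

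Summed macrophage and leukocyte markers were lower in every A2ARKO library than in any WT library. Limma called 0 of the 8 tested, against 5.08% of all tested genes. An unadjusted p below 0.05 was reached by 6 of the 8 and by 24.7% of all tested genes. Among these 6, C1qa, C1qb and C1qc reached 1 FPKM only in WT, so they were admitted through the group in which they were high. Lyz2 and C1qb, with the smallest unadjusted p, had log2 fold changes of -3.84 and -3.90 (adjusted p of 0.0910 and 0.108). Ptprc, the pan-leukocyte gene, was not tested. It was low in WT too, at 0.17, 1.4 and 0.17 FPKM, and at 0.01 to 0.04 FPKM in A2ARKO. C1qa was at 6.58, 63.86 and 1.06 FPKM in WT, highest in WT replicate 2, and at 0.24, 0.02 and 0 FPKM in A2ARKO. In all A2ARKO libraries 4 of the 9 markers stayed below 1 FPKM. Their part in the results was not tested. Endothelial markers summed to at most 3.76 FPKM and erythroid markers to at most 0.14 FPKM in any library.

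**Figure D5:**
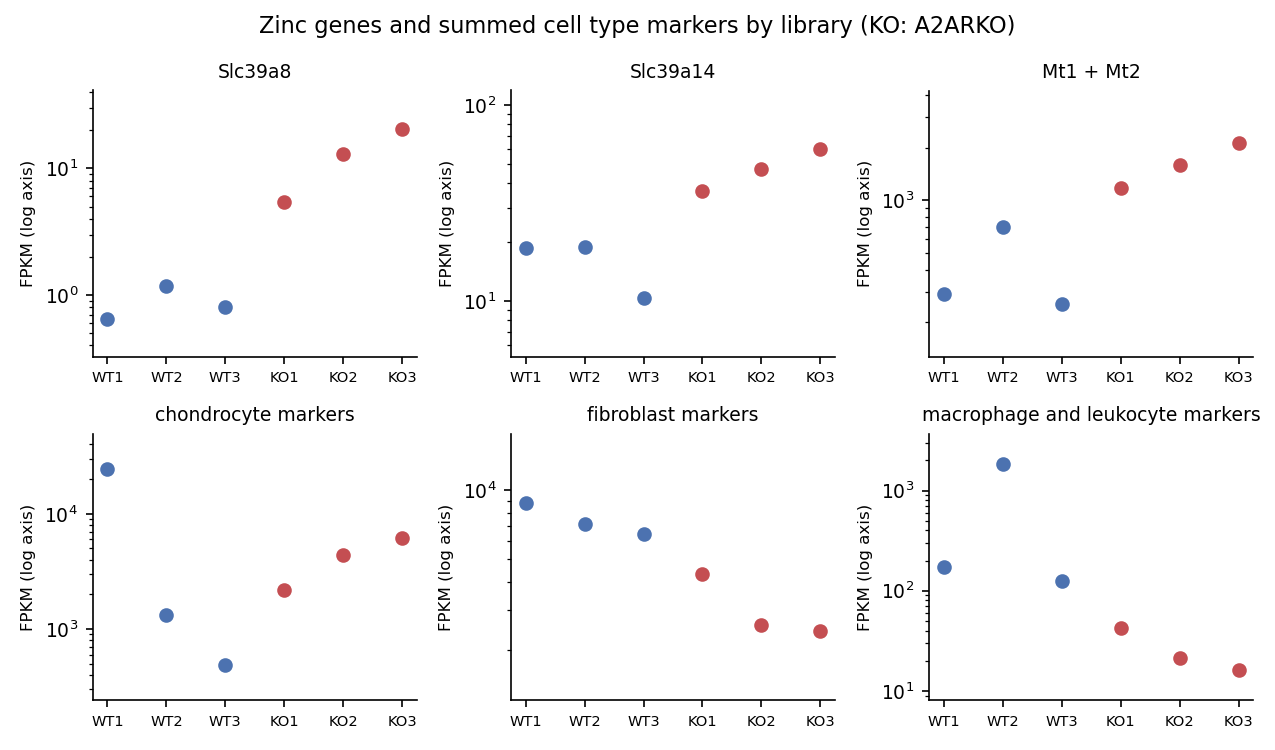
FPKM (log axes) of Slc39a8, Slc39a14, Mt1 plus Mt2 and the summed markers of chondrocytes, fibroblasts and macrophages or leukocytes in each library (WT blue, A2ARKO, written KO, red). The zinc genes are higher in the 3 A2ARKO libraries, the macrophage sum is highest in WT replicate 2 (1832), and the chondrocyte sum is highest in WT replicate 1 (24600).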

How the data were processed

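The authors deposited 1 table of FPKM with 47480 genes and 6 libraries, and all 6 columns were used, each assigned by its title. HTSeq and mm10 are the tool and build named, per the submitters' processing notes. Not given in the sources used here are aligner, annotation, gene lengths and strandedness. Since FPKM divide by library totals, an abundant gene that rises lowers the FPKM of the rest. Genes with 1 FPKM or more in at least 3 libraries were fitted with limma 3.58.1 in R 4.3.3 (lmFit, eBayes with trend) on log2(FPKM + 1), two-sided, with Benjamini-Hochberg adjustment across the 11595 genes that passed. The fit was tested on simulated data with the same SD for every gene and both groups. The median SD of log2(FPKM + 1) in the libraries was 0.1924 in WT and 0.09665 in A2ARKO. The simulation therefore does not show how the fit behaves with unequal spread. Single values were compared by two-sided exact permutation tests.

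Fragments per library were estimated from steps between FPKM of short genes, where 99.0% or more of low values were whole within 0.1 fragment. Exon lengths and positions are from GENCODE release M21, which 45114 rows matched by name. Fragments per gene are approximate, since the authors' lengths may differ.

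The 6 genes and all lists were chosen with earlier results of these data known. Genes named are Adora2a, the 6 genes, from each list up to 4 called members or, with none called, 2 with the smallest p, and the 3 genes nearest in pattern; Gm and Rik names were passed over there. Outside this rule, and chosen after their values were seen, are the uncalled members named from the importer, exporter, protease and metal lists and the single marker genes; markers are otherwise given as sums. Alternatives tried were another pseudocount, 2 other filters, 2 other scalings, a replicate block and each library left out.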

Additional observations from a re-analysis of the deposited data

How the results depend on the processing

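The number of genes called, 589, was 213 with no filter (26442 genes tested), 348 with libraries scaled to equal sums and lay between 50 and 900 with each library left out. Replicate numbers were not taken as pairs in the main fit. Same-numbered libraries deviated from their group means with correlations of -0.521, -0.325 and -0.387. Deviations from a shared group mean depend on each other, so these correlations cannot exclude a preparation shared by number. With a replicate block limma called 2 genes, and Slc39a8 and Slc39a14, at log2 fold changes of 2.745 and 1.54, did not pass (adjusted p = 0.107 and 0.165). With no filter they did not pass either, at the same log2 fold changes of 2.745 and 1.54 (0.0680 and 0.0855). Slc39a8 was not tested when 1 FPKM was required in all libraries. Leaving out each library gave log2 fold changes of 2.35 to 3.22 for Slc39a8, 1.27 to 1.71 for Slc39a14, 1.499 to 2.11 for Mt1 and 2.115 to 2.98 for Mt2, and Slc39a8 and Slc39a14 passed in 2 of 6 such fits each, Mt1 and Mt2 in 1. Slc30a1 lay between -0.048 and 0.23 and was -0.0044 with libraries scaled to equal sums, so its sign is not settled. The median of all genes was 0.0020, and -0.098 with such scaling. The log2 ratio of Slc39a8 to Slc30a1 differed by 3.47 with a pseudocount of 0.1. That ratio, the log2 ratio of Mt1 to Mt2 and the importer share of Slc39a8 kept their direction with each library left out. With 3 against 3 libraries exact tests cannot go below p = 0.1.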
